A study of Macaca mulatta with 6 samples.

Results

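The genes described here encode the subunits of the mitochondrial respiratory chain and of the ATP synthase. They were taken by symbol: NDUFA, NDUFB, NDUFC, NDUFS and NDUFV genes (complex I, assembly factors left out), SDHA to SDHD (complex II), UQCR genes and CYC1 (complex III), CYCS (cytochrome c), COX4 to COX8 genes (complex IV) and ATP5 genes (complex V, the ATP synthase). The rule found 70 symbols on 76 of the 30246 gene rows, and where a symbol sat on several rows, as 5 did, the row with the highest mean was kept. Of the 70, 3 share only the prefix and are not subunits: COX4NB, which the gene name table lists as EMC8, and ATP5S and ATP5SL, which it lists as DMAC2L and DMAC2. No row carried the symbols NDUFB8, SDHD, UQCRFS1, COX6A1, COX6B2, COX7A1, COX7A2, COX7C, ATP5B or ATP5O, so these genes were not analysed here under those names, although the row named COX7AH is COX7A1 in the gene name table.

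The RNA came from 6 rhesus monkey (Macaca mulatta) induced pluripotent stem cell (iPSC) lines: 2 male naive lines (N1 and N2), 2 female naive lines (FN1 and FN2) and 2 male primed lines (P1 and P2). Naive lines grew in a medium named 6SM in the labels, made of 85% KO-DMEM and 15% KSR (a serum replacement) with N2 supplement, L-glutamine (1 mM), 2-ME and NEAA (0.1 mM each), bFGF (4 ng/ml) and human LIF (10 ng/ml). It also held 3 µM CHIR99021, 0.5 µM PD0325901, 10 µM SB203580 and 10 µM SP600125, which inhibit GSK3, MEK, p38 and JNK. Primed lines grew in hESM, which is D/F12 with 20% KSR and bFGF. Feeder cells were removed before RNA isolation. The labels name separate lines and no donors, so p-values measure only the spread between these lines, and with no female primed line the sexes can be compared only within the naive state.

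As background, complexes I and II take electrons from NADH and succinate, complex III passes them to cytochrome c, and complex IV hands them to oxygen. Complexes I, III and IV pump protons, and complex V uses the proton gradient to make ATP. Most subunits are encoded in the nucleus and imported, and a few of complexes I, III, IV and V are encoded in mitochondrial DNA. Pluripotent stem cells rely strongly on glycolysis, and naive cells are known, mainly from mouse, to use mitochondrial respiration more than primed cells do.

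FPKM values scale fragments by transcript length and by the mapped total of a library. They summed to 662268 to 811495 per library, so a difference between libraries depends on the scaling, and a level depends on the length the authors' quantification used. Depth differed between the groups: the fragments behind the values, estimated from the deposited error bounds, summed to 1478692 and 1754857 in male naive libraries and to 7607125 to 10013491 in the other 4. A tested member had a median of 118 to 145 fragments in male naive libraries and of 587 to 813 in the others, a precision that covers counting error only. Rows spanning under 1500 bp held 33.9% and 35.7% of all FPKM in male naive libraries, against 27.4% and 23.4% in FN1 and FN2 and 21.6% and 26.8% in P1 and P2. All 12 pluripotency markers were found, with a summed level of 1388 to 1438 FPKM in the male naive group, 1898 to 2332 in the female naive group and 584 to 661 in the primed group. Of 12 fibroblast and feeder markers 11 were found, 0 at 0 in every library, with sums of 92.9 to 121, 218 to 338 and 24.7 to 254 FPKM in the same order. Limma called 8 of 12 tested pluripotency and 0 of 8 tested fibroblast and feeder markers between naive and primed lines. All 8 were higher in naive lines, while SOX2 and SALL4, not called, differed by -0.34 and -0.195. Of the called markers, POU5F1 had 135 and 109 FPKM in P1 and P2, and TDGF1 0 and 0.818. The 2 primed libraries differed in fibroblast markers, with COL1A1 at 9.24 FPKM in P1 and 135 in P2. Of 6 tested neural markers 2 fell in naive lines, MAP2 by 1.39 (adjusted p = 0.0244) and NCAM1 by 1.84 (adjusted p = 0.0177), with the list's sums at 281 to 312, 190.1 to 279.8 and 257 to 269 FPKM in the same order. Most of each sum was NES (165 to 263 FPKM), which was not tested. All 6 tested neural markers had differences below 0, from -0.64 (DCX) to -1.875 (PAX6). Of 4 tested muscle markers 1 rose, TNNT2 by 1.85, with sums of 144 to 155, 137 to 198 and 70.1 to 112 FPKM, and testis markers summed to at most 4.98 FPKM. The part of these markers in the results was not tested, and in bulk RNA fewer cells of a type and less RNA per cell cannot be told apart.

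The members took 1.45% and 1.40% of all FPKM in N1 and N2, 1.64% and 1.66% in FN1 and FN2 and 1.52% and 1.49% in P1 and P2. By this share the male naive libraries lay below the primed ones and the female naive libraries above them. Among kept rows the highest means over the 6 libraries were those of COX6C (632 FPKM), ATP5G1 (621 FPKM), ATP5A1 (551 FPKM), ATP5E (537 FPKM) and UQCR10 (482 FPKM), and the ranges of the neighbours in this order overlapped. The places of COX6C and UQCR10 rest on short implied lengths (97 and 49 bp, estimated on a relative scale from FPKM and fragments). At the low end, the muscle isoform of the complex IV subunit COX6A, COX6A2, was above 0 only in FN1 (0.679 FPKM), and NDUFA4L2, a paralog of NDUFA4, reached at most 0.735 FPKM. NDUFA5 and ATP5L2 were listed at 0 in all libraries, and these 4 members were not tested, which leaves 66. The row named NDUFA5, after a subunit of complex I, spans 385 bp, and the gene name table gives no symbol for its identifier. Its values of 0 are those of the row and may not be those of the gene.

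Levels varied little. Of the 64 tested members with a mean of 20 FPKM or more, 59 (92.2%) stayed within 2-fold from the lowest to the highest library, against 72.8% of the 4698 tested rows at that level. Their median ratio of highest to lowest library was 1.42, against 1.63 for those rows. COX6B1, a subunit that lies at the contact of the complex IV dimer, was the steadiest member (235 to 267 FPKM, a ratio of 1.14), and CYCS varied most at this level (72.2 to 243 FPKM, a ratio of 3.37).

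**Figure D1:**
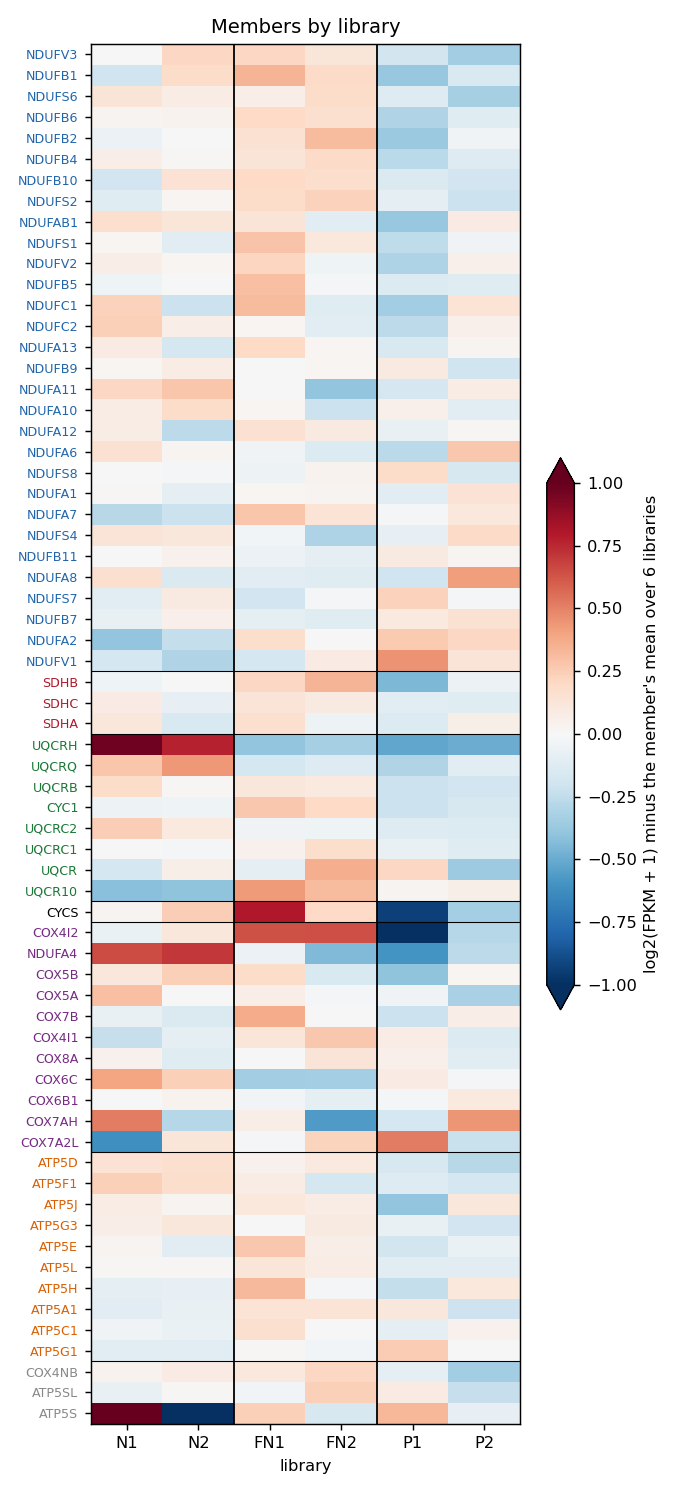
Each row is a tested member and each column a library (N, male naive; FN, female naive; P, male primed); colour gives log2(FPKM + 1) minus the member's mean over the 6 libraries, cut at -1 and 1, and label colours and lines mark complexes I, II, III, cytochrome c, IV, V and the 3 genes that are not subunits. UQCRH and NDUFA4 are dark red only in the 2 male naive columns, and CYCS is dark blue in P1.

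Naive and primed lines were compared to ask how the respiratory chain differed between the states. Each state was grown in its own medium, so effects of state and of medium, inhibitors included, cannot be told apart here. This limit holds for every comparison of naive with primed lines below. Few members differed. With limma on log2(FPKM + 1), over all tested rows, 2 of 66 members rose in naive lines (UQCRH and NDUFA4) and 0 fell at a Benjamini-Hochberg adjusted p under 0.05 (called below), 3.03% of them. Both calls lie on short rows that may not be the genes themselves, as described below for each. Of all 13685 tested rows 11.3% were called (6.72% higher and 4.59% lower), and of the 4698 rows with a mean of 20 FPKM or more, the level of 64 of the 66 members, 14.8%. At an unadjusted p under 0.05 there were 17 of 66 members, 15 higher and 2 lower, against 4235 of 13685 rows (30.9%).

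Most differences were small and, on values as deposited, above 0. The members' median difference was 0.15, against 0.035 over all tested rows and 0.11 over rows with a mean of 20 FPKM or more. The range was -0.43 to 1.00, and 62 of 66 lay within 0.5 of 0. The difference was above 0 for 49 members (74.2%) and below 0 for 17, against 53.1% above 0 over all rows and 61.96% over rows with a mean of 20 FPKM or more. The members' median lay 0.12 above that of all rows on values as deposited, 0.10 above it after upper-quartile scaling, 0.11 after median-of-ratios scaling and -0.001 from it after quantile normalization. After these scalings, in the same order, 32, 48 and 28 of the 66 members were above 0, with medians of -0.003, 0.115 and -0.025. Counts above 0 given below for each complex are on values as deposited. All 4 naive libraries lay above both primed libraries for 19 of 66 members, against 2582 of 13685 rows (18.9%). Among rows with a mean of 20 FPKM or more it was 1215 of 4698. All naive libraries lay below both primed ones for 3 of 66 members (NDUFV1, NDUFA2 and NDUFB7). That was so for 2177 of 13685 rows (15.9%) and for 573 of 4698 at that level. The summed FPKM of all subunits was 11290 ± 64.8 (SD, n = 2) in male naive, 11250 ± 499.9 (SD, n = 2) in female naive and 10180 ± 166 (SD, n = 2) in primed libraries, a naive to primed ratio of 1.11, and 1.08 without rows spanning under 1500 bp. As a share of all FPKM, given above, the male naive libraries lay below the primed ones instead.

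**Figure D2:**
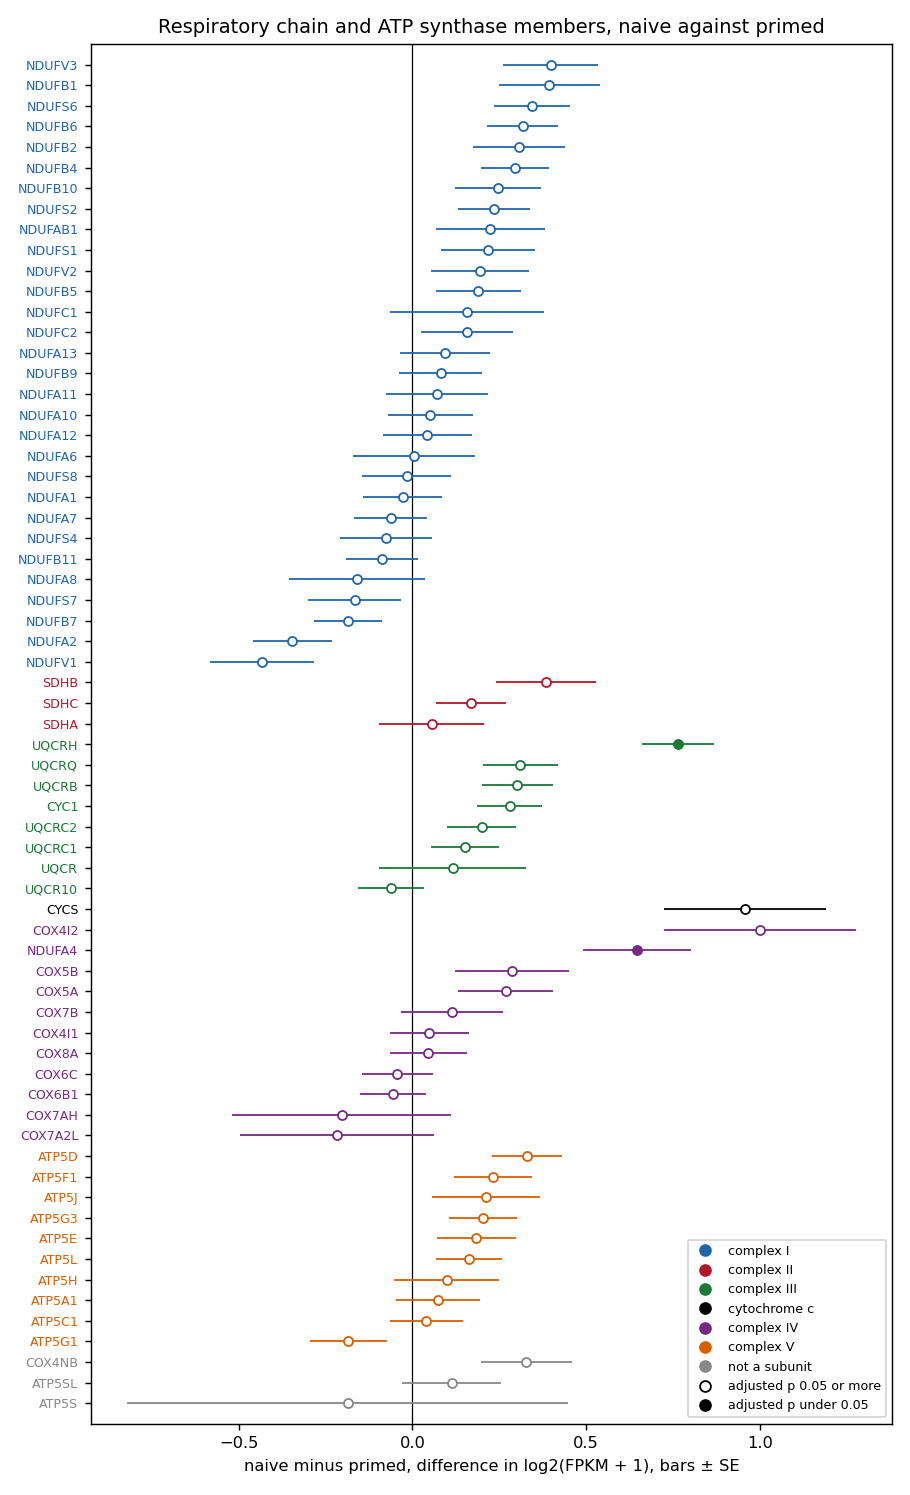
Differences between naive (mean of male and female) and primed lines in log2(FPKM + 1) with standard errors from limma, for 66 members grouped by complex. Filled points have an adjusted p under 0.05 (UQCRH and NDUFA4), and most other points lie between -0.5 and 0.5.

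Complex I, the NADH dehydrogenase, had no called member. Of 30 tested subunits 0 were called by limma, 7 had an unadjusted p under 0.05 (5 higher and 2 lower), and the median difference was 0.087. Over all tested rows 11.3% were called and 30.9% had an unadjusted p under 0.05. The 6 core subunits found, which carry the flavin and iron-sulfur clusters, split evenly, with 3 above and 3 below 0. Summed complex I FPKM was 3299 ± 33.2 in the male naive group, 3406 ± 153 in the female naive group and 3085 ± 189 in the primed group (SD, n = 2 each), and 1 primed library (3219) came close to the lowest naive one (3276).

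NDUFV1, the core subunit that binds NADH, had the most negative difference of all members. Its levels were 32.9 FPKM in N1, 30.1 in N2, 32.8 in FN1, 39.5 in FN2, 51.2 in P1 and 40.8 in P2. All naive libraries were below both primed ones, by a narrow margin for FN2 and P2, and the difference was -0.43 (SE 0.15, limma adjusted p = 0.112). NDUFA2, an accessory subunit, had 51.7 and 57.7 FPKM in N1 and N2, 77.4 and 68.2 in FN1 and FN2 and 82.0 and 78.9 in P1 and P2. The groups did not overlap, but FN1 sat next to P2, and the difference was -0.35 (SE 0.11, adjusted p = 0.100). NDUFA2 became a called gene under 2 other scalings, falling by 0.50 with upper-quartile scaling (adjusted p = 0.0360) and by 0.51 with quantile normalization (adjusted p = 0.0414). NDUFB7, the other accessory subunit whose libraries did not overlap, differed by -0.19 (SE 0.10, adjusted p = 0.250). NDUFA2 and NDUFB7 were chosen after their values were seen.

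NDUFV3, an accessory subunit beside NDUFV1, had the largest positive difference in complex I. It had 22.1 and 25.9 FPKM in N1 and N2, 25.8 and 24.2 in FN1 and FN2 and 19.5 and 17.2 in P1 and P2, which did not overlap, and differed by 0.40 (SE 0.14, adjusted p = 0.111). NDUFB4, an accessory subunit of the membrane arm with the highest mean in complex I, had 301 and 290.2 FPKM in N1 and N2, 316 and 328 in FN1 and FN2 and 239 and 264 in P1 and P2. Every naive library of NDUFB4 was above both primed ones, with a difference of 0.30 (SE 0.098, adjusted p = 0.101). NDUFS1, the largest core subunit, ranged from 25.9 to 34.5 FPKM in naive and from 23.5 to 27.5 in primed libraries, which overlapped, with a difference of 0.22 (SE 0.14, adjusted p = 0.330). The row named NDUFC2 is KCTD14 in the gene name table, so its 72.7 to 103 FPKM are of uncertain origin.

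Complex II, the succinate dehydrogenase that also works in the citric acid cycle, was measured through 3 of its genes. Limma called 0 of 3, with 1 at an unadjusted p under 0.05, and all 3 differences were above 0, with a median of 0.17. Among all tested rows 11.3% were called, 30.9% had such a p and 53.1% were above 0. SDHB, the iron-sulfur subunit, had 48.8 and 50.2 FPKM in N1 and N2, 58.2 and 63.8 in FN1 and FN2 and 36.4 and 48.2 in P1 and P2. P2 nearly reached N1, so the groups were separated by less than the gap between the primed lines, and the difference was 0.38 (SE 0.14, adjusted p = 0.134). SDHC, a membrane anchor, differed by 0.17 (SE 0.10, adjusted p = 0.312) with naive libraries at 112 to 129 FPKM and primed ones at 109 and 109.9. SDHA, the flavoprotein that oxidizes succinate, overlapped between the states (22.2 to 27.9 against 22.5 and 25.9 FPKM) and differed by 0.056 (SE 0.15, adjusted p = 0.834).

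Complex III, which hands electrons to cytochrome c, held 1 of the called members. Of its 8 subunits 1 rose (UQCRH), 4 had an unadjusted p under 0.05, 7 differences were above 0 and the median was 0.24. The 1 call is 12.5% of the subunits, near the 11.3% called of all tested rows. Of those rows 30.9% had an unadjusted p under 0.05 and 53.1% were above 0. Summed FPKM was 1706 ± 23.7 in the male naive group, 1644 ± 3.24 in the female naive group and 1393 ± 9.73 in the primed group (SD, n = 2 each), and the groups did not overlap. The naive to primed ratio of 1.20 became 1.16 without the 3 rows spanning under 1500 bp (UQCRH, UQCRQ and UQCR10), which held most of the sum. CYC1, the heme subunit that reduces cytochrome c, had 127 and 128 FPKM in N1 and N2, 159 and 151 in FN1 and FN2 and 113 and 118 in P1 and P2. Its naive libraries were all above the primed ones, and the difference was 0.28 (SE 0.094, adjusted p = 0.104). The core proteins UQCRC1 and UQCRC2, which belong to the matrix arm, did not overlap between the states either and differed by 0.15 (SE 0.098, adjusted p = 0.349) and 0.20 (SE 0.099, adjusted p = 0.231).

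Cytochrome c had one of the 2 largest differences among the members and missed the threshold narrowly. CYCS, the mobile electron carrier that also triggers apoptosis once released from mitochondria, had 141 FPKM in N1, 165 in N2, 243 in FN1, 159.9 in FN2, 72.2 in P1 and 109 in P2. Every naive library was above both primed ones, FN1 stood highest and P1 lowest, and the naive to primed ratio of means was 1.95. The difference was 0.96 (SE 0.23, limma adjusted p = 0.0505), over a row of 2470 bp on chromosome 3, from 101146193 to 101148662. CYCS passed the threshold in 4 of 18 alternatives, among them the fit without rows spanning under 1500 bp (adjusted p = 0.0371), and over all 18 the difference was 0.66 to 1.25 and the adjusted p 0.0346 to 0.198. Without P1, the lowest library, the difference was 0.66, and without both male naive libraries it was 1.14 (adjusted p = 0.0869). The male naive lines alone differed from primed lines by 0.78 (SE 0.27, adjusted p = 0.142), and the female naive lines differed from the male naive lines by 0.37 (SE 0.27, adjusted p = 0.489).

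**Figure D3:**
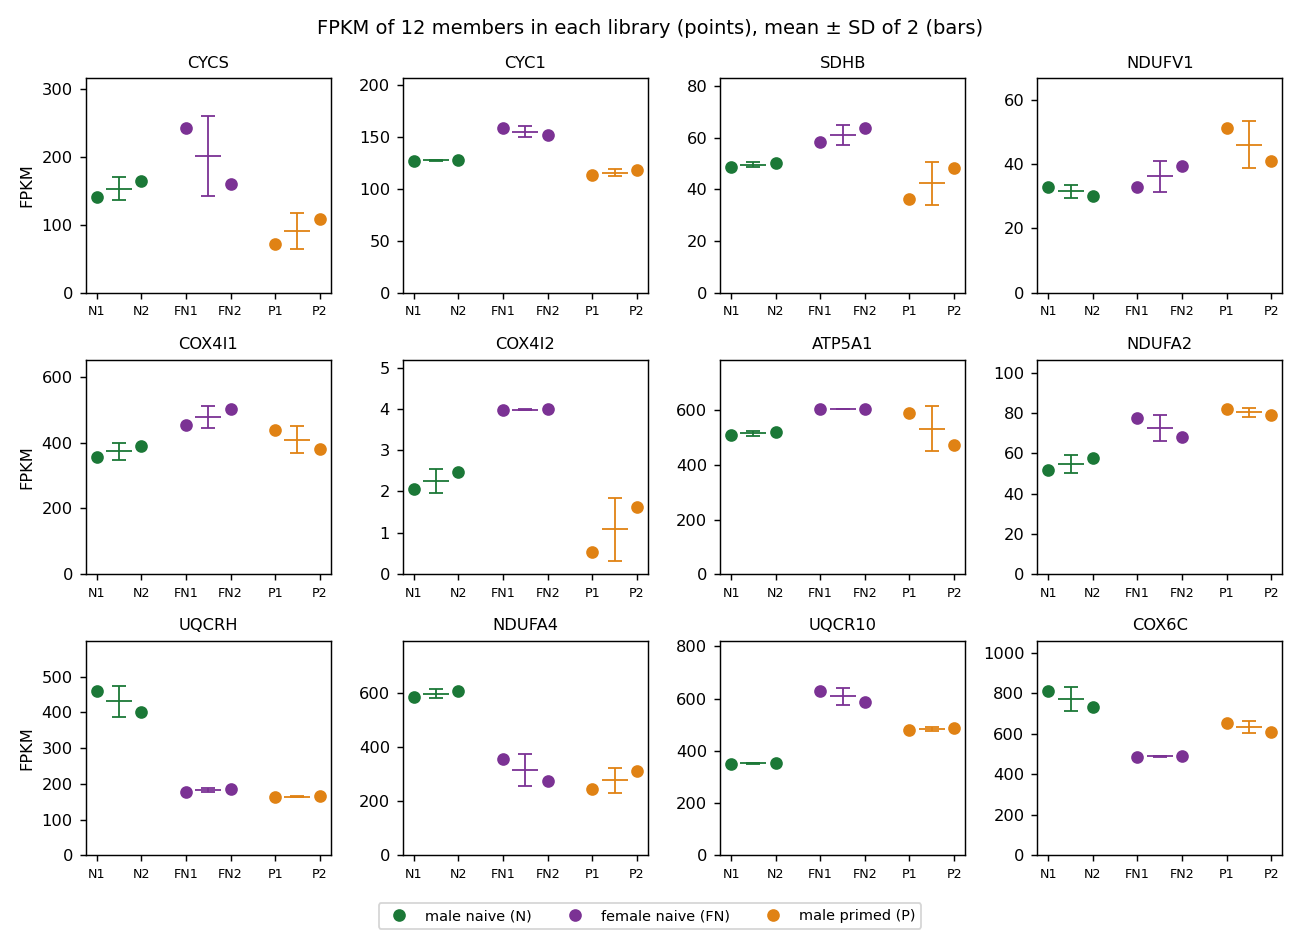
FPKM of 12 members in each library as points, on linear axes from 0, with the mean ± SD of each group of 2 as bars. CYCS and SDHB are lowest in P1, NDUFV1 and NDUFA2 are highest in primed lines, and UQCRH and NDUFA4 stand high in N1 and N2 alone.

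The row named UQCRH, after the hinge protein of complex III, had the smallest adjusted p of all members. It had 461 FPKM in N1, 401 in N2, 178 in FN1, 187 in FN2, 163 in P1 and 166 in P2. The male naive libraries stood far above the others, and the female naive libraries were only slightly above the primed ones. UQCRH rose by 0.76 in naive lines (SE 0.10, adjusted p = 0.0137) and by 1.38 in male naive against primed lines (SE 0.12, adjusted p = 0.00449). The first call was lost without N1, N2, FN2 or P1 (adjusted p = 0.0514 to 0.0599), and the second without N1 or N2 (adjusted p = 0.0568 and 0.0514). Without both male naive libraries the difference between naive and primed lines was 0.15 (adjusted p = 0.531). The row spans 276 bp on chromosome 5 (92213723 to 92213998), and the gene name table gives no symbol for its identifier. Whether it is the UQCRH gene or a processed copy of it elsewhere in the genome cannot be told from the files, so these values are those of the row and may not be those of the gene.

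Complex IV, the cytochrome c oxidase, held 13 of the symbols, of which 11 were tested. Of these 1 rose (NDUFA4), which is 9.09%, against 11.3% of all tested rows called. An unadjusted p under 0.05 was found for 2, against 30.9% of all rows. The median difference was 0.048, close to that of all rows. Summed FPKM was 3132 ± 50.5 in the male naive group, 2728 ± 146 in the female naive group and 2641 ± 7.31 in the primed group (SD, n = 2 each), and FN2 (2625) lay below both primed libraries. COX4I1, a regulatory subunit encoded in the nucleus, ranged from 356 to 502 FPKM in naive lines, on both sides of P1 (439) and P2 (380), and differed by 0.048 (SE 0.11, adjusted p = 0.810). Its isoform COX4I2, known from lung and from hypoxic cells, was far lower: 2.06 and 2.46 FPKM in N1 and N2, 3.97 and 3.99 in FN1 and FN2 and 0.545 and 1.62 in P1 and P2. COX4I2 was above both primed libraries in every naive one and differed by 1.00 (SE 0.28, adjusted p = 0.0681), a value that rests on an estimated 2 to 22 fragments per library.

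The other COX subunits of complex IV differed by less than 0.3 in either direction. COX5A and COX5B, encoded in the nucleus, differed by 0.27 (SE 0.14, adjusted p = 0.240) and 0.29 (SE 0.16, adjusted p = 0.286). COX6B1, COX6C, COX7B and COX8A, small subunits around the core, differed by -0.057, -0.044, 0.11 and 0.045, all with adjusted p of 0.645 or more. COX7A2L, a factor of respiratory supercomplexes, had the most negative difference in complex IV, -0.22 (SE 0.28, adjusted p = 0.640). It ranged from 53.8 to 96.5 FPKM in naive lines and was 119 in P1 and 70.7 in P2, so the groups overlapped.

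NDUFA4, first assigned to complex I and now counted as a subunit of complex IV, sat on 2 rows that gave different answers. The kept row, 246 bp on chromosome 5 (94508620 to 94508865), had 587 and 609.7 FPKM in N1 and N2, 357 and 273 in FN1 and FN2 and 245 and 311 in P1 and P2. The male naive libraries stood above all others, while the female naive libraries overlapped the primed ones. This row rose by 0.65 in naive lines (SE 0.16, adjusted p = 0.0493) and by 1.11 in male naive lines (SE 0.18, adjusted p = 0.0265). The first call was lost in 14 of 17 alternatives, among them those without any 1 of the 6 libraries (adjusted p = 0.0550 to 0.177), and the second without N1, N2 or P1. Without both male naive libraries the difference was 0.18 (adjusted p = 0.625). The other NDUFA4 row spans 6665 bp on chromosome 3 (115368828 to 115375492), and only this one is NDUFA4 in the gene name table, so the 246 bp row may be a copy of the gene. It had 376 and 332 FPKM in N1 and N2, 462 and 346 in FN1 and FN2 and 312 and 355 in P1 and P2, overlapping groups with a difference of 0.18 (SE 0.15, adjusted p = 0.475). With the longest row per symbol in place of the highest, a choice made after seeing the data, 1 member was called, UQCRH.

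Complex V, the ATP synthase, had 0 of 10 tested subunits called by limma, 1 at an unadjusted p under 0.05, and 9 differences above 0 with a median of 0.17. Over all tested rows 11.3% were called, 30.9% had such a p and 53.1% were above 0. Summed FPKM was 2804 ± 28.5 in the male naive group, 3058 ± 145 in the female naive group and 2791 ± 76.1 in the primed group (SD, n = 2 each), with P1 (2845) above both male naive libraries. ATP5A1, the alpha subunit of the catalytic F1 head, had 509.8 and 521 FPKM in N1 and N2, 605 and 604 in FN1 and FN2 and 593 and 475 in P1 and P2. Naive and primed levels of ATP5A1 overlapped, and the difference was 0.073 (SE 0.12, adjusted p = 0.717). ATP5C1, the gamma subunit that forms the rotating shaft, also overlapped and differed by 0.040 (SE 0.10, adjusted p = 0.827). ATP5D, the delta subunit of the same shaft, had the largest positive difference in complex V. It had 83.8 and 84.8 FPKM in N1 and N2, 78.3 and 81.1 in FN1 and FN2 and 67.7 and 62.5 in P1 and P2, which did not overlap, and differed by 0.33 (SE 0.10, adjusted p = 0.0870).

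The c subunits, which build the rotating membrane ring, were on several rows. The kept ATP5G1 row, on chromosome 11, is ATP5MC2 (the current name of ATP5G2) in the gene name table, and had the highest mean and the most negative difference in complex V, -0.19 (SE 0.11, adjusted p = 0.313). The ATP5G1 row that the table lists as ATP5MC1, on chromosome 16, had 95.8 to 106 FPKM in naive and 95.9 and 80.6 in primed libraries and differed by 0.19 (SE 0.11, adjusted p = 0.294). The main ATP5G3 row, ATP5MC3 in the table, had 304 and 314 FPKM in N1 and N2, 290.2 and 309.6 in FN1 and FN2 and 275 and 254 in P1 and P2, and differed by 0.20 (SE 0.097, adjusted p = 0.214).

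Short rows of several symbols departed from the longer rows of the same symbol. The ATP5G3 row of 426 bp on chromosome 7 had 44.8 and 52.2 FPKM in N1 and N2, 17.7 and 21.5 in FN1 and FN2 and 11.7 and 10.2 in P1 and P2. It followed the order male naive, female naive, primed without overlap and rose by 1.41 (SE 0.15, adjusted p = 0.00966). The ATP5G1 row of 408 bp on chromosome 5 had 51.3 and 44.5, 27.0 and 27.6, and 23.7 and 19.1 FPKM in the same order and rose by 0.74 (SE 0.14, adjusted p = 0.0291). The SDHC row of 348 bp on the X chromosome had 17.3 and 19.6, 3.48 and 6.96, and 5.01 and 4.99 FPKM, with female naive libraries on both sides of the primed ones. It differed by 0.84 (SE 0.26, adjusted p = 0.0872) and rose by 1.69 in male naive lines (SE 0.30, adjusted p = 0.0331), while the 44055 bp SDHC row differed by 0.11 there (SE 0.12, adjusted p = 0.585). A short NDUFA1 row, 213 bp on chromosome 1, showed no such departure and differed by 0.003 (SE 0.15, adjusted p = 0.993). Among all tested rows spanning under 500 bp, 20.5% were called in naive against primed lines and 24.65% in male naive against primed lines. How the reads were shared between rows of near-identical sequence was not stated, as far as the labels and headers show, and the levels of rows that share a symbol are uncertain.

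**Figure D4:**
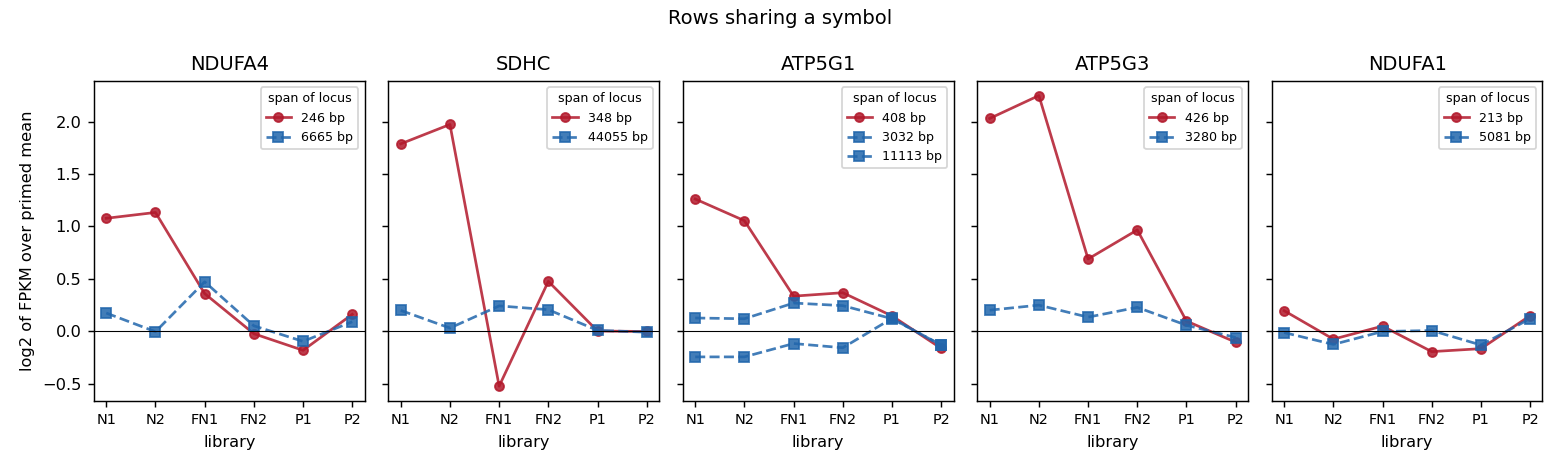
log2 of FPKM over the mean of P1 and P2 in each library, for the 5 symbols found on several rows; red circles mark rows spanning under 1500 bp, blue squares longer rows, and lines only join values of 1 row. The short rows of NDUFA4, SDHC, ATP5G1 and ATP5G3 stand high in N1 and N2, while the longer rows stay near 0 in all libraries.

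All called members had a short implied length. The length that the authors' FPKM implies can be estimated, on a relative scale, from the fragments behind a value. It was under 200 bp for 5 tested members: UQCR10, COX6C, NDUFA4, UQCRQ and UQCRH. In naive against primed lines limma called 2 of these 5 and 0 of the 61 members with a longer implied length. Of those 61, 14 had an unadjusted p under 0.05, against 30.9% of all rows. In male naive against primed lines it called 2 of 5 and 0 of 61 (8 at an unadjusted p under 0.05, against 25.7% of all rows), and in female against male naive lines 3 of 5 and 0 of 61 (5 at an unadjusted p under 0.05, against 21.6% of all rows). Over all tested rows with an implied length, those under 200 bp were called in 19.9%, 19.0% and 15.3% of cases in the 3 comparisons. Rows from 200 to under 500 bp were called in 13.1%, 13.4% and 9.92%, and those of 500 bp or more in 11.0%, 4.20% and 2.32%. The share of FPKM in short rows and the depth both differed between male naive and the other libraries, and their part in these calls was not tested.

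**Figure D5:**
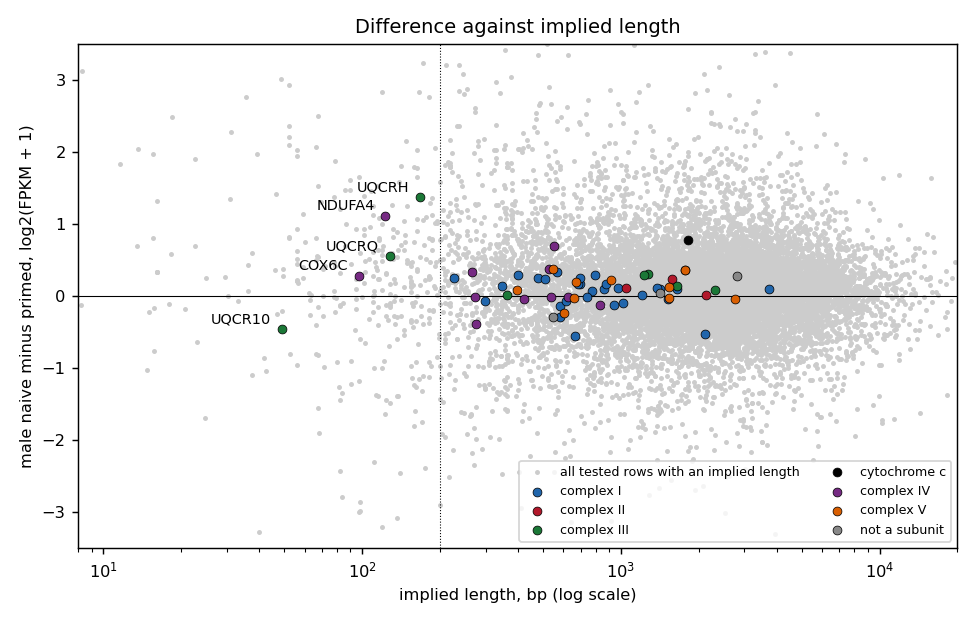
Difference between male naive and primed lines in log2(FPKM + 1) against implied length on a log scale, for tested rows (grey) and members (coloured by complex); the dotted line marks 200 bp, and rows beyond ±3.5 are outside the axis. UQCRH and NDUFA4 lie left of the line and above the other members.

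Taken alone, the male naive lines gave the same pair of calls. Against primed lines 2 of 66 members rose (UQCRH and NDUFA4) and 0 fell, 3.03%, while 5.39% of all rows were called (3.97% higher and 1.43% lower). The members' median difference was 0.11, against 0.090 over all rows and 0.18 over rows with a mean of 20 FPKM or more, of which 7.60% were called. With other scalings this median did not stay above 0. It was -0.22 after upper-quartile scaling, -0.01 after median-of-ratios scaling and -0.12 after quantile normalization. Of the 66 members 44 were above 0 on values as deposited, and 10, 30 and 19 after these scalings in the same order. NDUFA2 differed by -0.55 (SE 0.13, adjusted p = 0.0672) and UQCRQ, a small subunit of complex III, by 0.56 (SE 0.12, adjusted p = 0.0576). These differences share the primed libraries with the comparison of all naive lines. On values as deposited, complex sums in male naive libraries were 1.07 times the primed mean for complex I, 1.10 for II, 1.23 for III, 1.19 for IV and 1.00 for V. Without rows spanning under 1500 bp they were 1.13 for III and 1.07 for IV.

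Female and male naive lines grew in the same medium, and 3 of 66 members differed between them: UQCR10 rose in female lines, and UQCRH and COX6C fell. This is 4.55% of the members, while all rows were called at 3.31% (0.76% higher and 2.55% lower). Rows with a mean of 20 FPKM or more were called at 4.36%. UQCR10, a small subunit of complex III, had 352 and 355 FPKM in male naive and 631 and 586 in female naive libraries, with primed libraries between them at 479 and 489. It rose by 0.78 in female lines (SE 0.11, adjusted p = 0.0220), with only 30 and 24 estimated fragments in N1 and N2. The counting error that follows from the fragments, 0.21 on the log2 scale, was larger than that SE. COX6C, a small subunit of complex IV, had 814 and 732 FPKM in male naive and 486 and 491 in female naive libraries, again with primed libraries between them at 656 and 611. COX6C fell by 0.66 in female lines (SE 0.12, adjusted p = 0.0423), a call lost in 10 of 17 alternatives, among them all 3 other scalings (adjusted p = 0.0507 to 0.162), with a difference of -0.31 after upper-quartile scaling. UQCRH fell by 1.23 (SE 0.12, adjusted p = 0.00689). The female naive libraries were the deeper ones, and sex and depth cannot be told apart here. Each of the 3 calls was lost when any naive library was left out (adjusted p = 0.0613 to 0.237). The members' median difference was 0.095, against -0.10 over all rows, and 42 of 66 (63.6%) were above 0, against 39.1% of all rows.

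Genes that build the complexes were read from lists of related genes. Their counts are read against the 11.3% of all rows that were called in naive against primed lines (6.72% higher). Of 16 tested complex I assembly factors 1 rose in naive lines and 0 fell (6.25%), near that share. It was NDUFAF4, with 52.1 and 49.0 FPKM in N1 and N2, 76.7 and 71.4 in FN1 and FN2 and 31.8 and 32.4 in P1 and P2. The groups of NDUFAF4 were apart and the replicates close, and it rose by 0.91 (SE 0.11, adjusted p = 0.0102) and by 0.64 in male naive lines alone (adjusted p = 0.0415). NDUFAF4 was called in 15 of 18 alternatives and missed the threshold without N1 (adjusted p = 0.0518), without P1 (adjusted p = 0.0509) and with sex ignored (adjusted p = 0.0780). Of 24 complex IV assembly factors 2 rose (8.33%), also near it: COX20, a chaperone of COX2, by 1.03 (SE 0.22, adjusted p = 0.0375) and SCO1, a copper chaperone, by 0.57 (SE 0.13, adjusted p = 0.0438). COX20 had 42.8 to 53.9 FPKM in naive and 17.1 and 29.3 in primed libraries. The COX20 call was lost when any 1 library other than P2 was left out (adjusted p up to 0.111), and the SCO1 call when any 1 of the 6 was (adjusted p up to 0.131). Limma called 0 of 8 assembly factors of complexes II and III (0 at an unadjusted p under 0.05) and 0 of 7 of complex V (1 at an unadjusted p under 0.05).

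The subunits encoded in mitochondrial DNA were all found, and 10 of 13 were tested. Limma called 0 of 10, with 3 at an unadjusted p under 0.05, and the median difference was 0.12. Among all tested rows 11.3% were called and 30.9% had such a p. ND4L and ATP8 were listed at 0 and ATP6 stayed at 2.67 FPKM or less, although COXIII, the neighbour of ATP6, had 1575 to 2621 FPKM. ND4, a proton-pumping subunit, had 581 and 656 FPKM in N1 and N2, 455 and 347 in FN1 and FN2 and 250.2 and 386 in P1 and P2. P2 overlapped FN2, and ND4 differed by 0.67 (SE 0.21, adjusted p = 0.0870). ND1, which lines the quinone site, had 635 and 715 FPKM in N1 and N2, 959 and 838 in FN1 and FN2 and 858 and 1152 in P1 and P2, and differed by -0.36 (SE 0.15, adjusted p = 0.179). So ND4 and ND1, of the same complex, differed in opposite directions, and neither was called.

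Among 22 tested genes of mitochondrial biogenesis and mitochondrial DNA expression 2 rose, MYC and POLG2, and 0 fell (9.09%, against 11.3% of all rows). MYC, a transcription factor that drives growth and mitochondrial genes, had 18.6 and 17.4 FPKM in N1 and N2, 37.0 and 59.4 in FN1 and FN2 and 1.22 and 3.70 in P1 and P2, and rose by 3.22 (SE 0.34, adjusted p = 0.00966), a call kept in 18 of 18 alternatives. POLG2, the accessory subunit of the mitochondrial DNA polymerase, rose by 0.77 (SE 0.15, adjusted p = 0.0304), a call lost when any 1 library was left out (adjusted p up to 0.0982). Of 24 genes of the citric acid cycle and pyruvate dehydrogenase 2 rose, IDH3A and PDP1, and 1 fell, IDH2 (12.5%), and both shares were near that of all rows. IDH3A, the catalytic subunit of the NAD-linked isocitrate dehydrogenase, had at least 23.4 FPKM in each naive library and 10.6 and 13.3 in primed libraries and rose by 0.99 (SE 0.14, adjusted p = 0.0159). IDH2, the NADP-linked mitochondrial enzyme, had 54.4 to 85.5 FPKM in naive and 152 and 122 in primed libraries and fell by 0.94 (SE 0.14, adjusted p = 0.0152). PDP1, the phosphatase that switches pyruvate dehydrogenase on, rose by 1.14 (SE 0.17, adjusted p = 0.0155). Without 1 library at a time these 3 calls had adjusted p of at most 0.0727 and were lost without N1, N2 or P1, that of IDH3A and IDH2 also without FN1, and that of IDH3A and PDP1 also without FN2.

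The mitochondrial ribosome, which translates the subunits encoded in mitochondrial DNA, was the longest of these lists. Of 68 proteins 9 rose and 0 fell (13.2%, against 11.3% of all rows called and 6.72% called higher), 59 differences were above 0, and the median was 0.23. The largest differences among the called proteins were those of MRPL33 (0.82), MRPL3 (0.66), MRPS2 (0.65), MRPS22 (0.64), MRPS30 (0.62) and MRPS12 (0.53), with adjusted p of 0.0258 to 0.0466. MRPL3 had 61.9 to 76.5 FPKM in naive and 46.1 and 42.4 in primed libraries, and MRPL33 is a row of 198 bp. The count of 9 was 0 without N1, N2, FN1, FN2 or P1 and 2 without P2, and it was 1 after upper-quartile scaling or quantile normalization. Of 21 mitochondrial carriers and membrane proteins 1 rose, TIMM23, the import channel of the inner membrane, by 0.53 (SE 0.11, adjusted p = 0.0340), a call lost when any 1 library was left out (adjusted p up to 0.111), and 0 fell. Limma called 0 of 9 mitochondrial antioxidant genes, with 0 at an unadjusted p under 0.05.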

How the data were processed

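RNA sequencing of 6 libraries, 2 in each of 3 groups, was used, with groups and numbers from the titles and sex labels. Per the submitters' processing notes reads were aligned with TopHat 1.3.0. The authors deposited FPKM values of 30246 gene rows, each with its 2 error bounds and a status, per the file headers, in the layout of a Cufflinks gene tracking table. The sources used here give no genome build, annotation or quantifier version and state no scaling between libraries. Coordinates are those of the files, counted from base 1. The files give a symbol for 22292 rows, and the gene name table holds 15769 of the identifiers.

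The bounds lie 2 SD from FPKM, so fragments behind a value were estimated from the upper bound, and implied length from fragments, FPKM and the library total (values with 5 or more fragments). A row was tested if 2 or more libraries reached an FPKM of 1 and its status was never a failure (13685, after 40 were dropped for status). A group-means model of log2(FPKM + 1) over all 6 libraries, with a trend and 3 residual degrees of freedom, was fitted by limma 3.58.1 (R 4.3.3). Naive is the mean of the male and female naive means. P-values are two-sided and Benjamini-Hochberg adjusted over all tested rows. Fold changes are differences of log2(FPKM + 1), a scale that shrinks those of low genes. The fit was tested on simulated data. Tables used Python 3.11.15 and pandas 2.3.3.

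The members, the related lists and the markers were chosen with earlier results of these data known. Named members were those called in any of 3 comparisons, those with the highest mean and the largest difference in each direction per complex, and a set of subunits named in any case. Of related lists, called genes were named, at most 6 by size of difference. Any other gene is described as picked after its values were seen, or named as rows of the same symbol, as short rows or as mitochondrially encoded examples. Library numbers were not used to pair the samples, except in the replicate block. Alternatives were pseudocounts, filters, scalings, precision weights from the bounds, left-out libraries and short rows, a replicate block and sex ignored.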

Additional observations from a re-analysis of the deposited data

Results flagged for a closer look

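For 3 of 66 members (4.55%) the difference between naive and primed lines itself differed between male and female naive lines. That share is near the 3.31% of all rows and the 4.36% of rows with a mean of 20 FPKM or more. The test was female against male naive lines in limma, since both differences share the primed libraries, and no female primed line was analysed. COX6C had a female minus male difference of -0.66 (adjusted p = 0.0423) and UQCR10 of 0.78 (adjusted p = 0.0220), each with the primed libraries between the sexes. The COX6C call was lost in 10 of 17 alternatives, and UQCR10 had 30 and 24 estimated fragments in N1 and N2. UQCRH had -1.23 (adjusted p = 0.00689), with the female naive libraries close to the primed ones. The 3 members were picked by this same comparison, so their agreement in 2 of 2 female lines is no separate support. The limits given above apply here too: the calls depended on each naive library, and sex and depth cannot be told apart. The row named UQCRH may not be the gene.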

How the results depend on the processing

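For naive against primed lines, 2 members were called on values as deposited, 1 with a pseudocount of 0.1 or 0.5, with no filter on low values, without rows spanning under 1500 bp (CYCS) or with the longest row per symbol (UQCRH, an alternative chosen after seeing the data), and 0 with sex ignored or without both male naive libraries. Over all rows 1548 were called, 941 with no filter, 250 with sex ignored and 625 without both male naive libraries. Leaving out 1 library gave 0 to 2 members and 177 to 1081 rows (0 members without N1, N2, FN2 or P1, and fewest rows without P1).

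For male naive against primed lines, 2 members were called, 1 with no filter or the longest row per symbol, 0 without rows spanning under 1500 bp, 6 after upper-quartile scaling (UQCRH higher and ATP5G1, NDUFA2, NDUFA7, NDUFV1 and UQCR10 lower) and 4 after median-of-ratios scaling or quantile normalization (NDUFA2 and UQCR10 lower beside UQCRH and NDUFA4). Over all rows 738 were called, 400 with no filter, 1137 after upper-quartile scaling, 464 without rows spanning under 1500 bp and 348 with the 2 groups fitted alone. Leaving out 1 library gave 0 to 2 members and 51 to 626 rows (0 members without N1 or N2, and fewest rows without N2).

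For female against male naive lines, 3 members were called, 6 after upper-quartile scaling (CYC1, COX4I1, NDUFA2, NDUFA7 and UQCR10 higher, UQCRH lower) and 0 without rows spanning under 1500 bp. Over all rows 453 were called, 268 with no filter and 183 without rows spanning under 1500 bp. Leaving out 1 library gave 0 to 4 members and 41 to 523 rows (0 members without N1, N2, FN1 or FN2, and fewest rows without N2).

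The scaling moved the median of all rows by -0.14, -0.29 and 0.31 in the 3 comparisons with upper-quartile values, by -0.10 and 0.14 in the last 2 of these with median-of-ratios values, and by -0.11 and 0.12 with quantile normalization. Calls higher and lower were then 630 and 1108 (upper-quartile) and 741 and 739 (quantile) in place of 920 and 628. For male naive against primed they were 336 and 801, 417 and 264 (median-of-ratios) and 399 and 294 (quantile) in place of 543 and 195. For female against male naive they were 221 and 177, 122 and 220, and 118 and 223 in place of 104 and 349.

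Upper-quartile scaling moves all rows of a library alike, so uncalled members with differences smaller than its shift change sign by construction: ATP5A1 (-0.084), ATP5C1 (-0.12), COX4I1 (-0.11), COX7B (-0.044), COX8A (-0.11), SDHA (-0.096) and UQCRC1 (-0.007). After quantile normalization the members that changed sign were ATP5A1 (-0.092), ATP5C1 (-0.18), COX4I1 (-0.17), COX7B (-0.12), COX8A (-0.14), SDHA (-0.024), SDHC (-0.016) and UQCRC1 (-0.036). UQCR10 was 0.33 without both male naive libraries. Leaving out 1 library gave ranges across 0 for ATP5A1 (-0.086 to 0.23), ATP5C1 (-0.028 to 0.11), COX4I1 (-0.056 to 0.15), COX6C (-0.094 to 0.007), COX7A2L (-0.59 to 0.15), COX7B (-0.026 to 0.25), COX8A (-0.033 to 0.12) and SDHA (-0.042 to 0.15). The causes of these changes were not tested.

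With a replicate block, 1 member (UQCRH) was called in each comparison, and 812, 373 and 207 rows. Deviations of libraries with the same number correlated at -0.060, -0.050 and -0.26 between pairs of groups, the last for female naive and primed libraries. With 2 libraries per group the sign follows from the numbering, so this cannot show whether variation was shared between groups. The replicate block covers only variation shared by libraries of the same number. A group left with 1 library is assumed to vary like the others. Depth limits the low members most, with 0 to 9 estimated fragments at the lowest tested member per library.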
